A study of Homo sapiens with 6 samples.

Results

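A set of 10 named genes of the hypoxia response was followed in T24 cells treated with TGF-β1: the transcription factor subunits HIF1A and EPAS1, and DDIT4, NDRG1, CA9, ADM, BNIP3, EGLN3, ANKRD37 and KDM3A, which are known as targets of those factors. They were taken by symbol, and all 10 had a row among the 58735 gene rows of the deposited table. T24 is a long-established human cell line that was derived from a urothelial carcinoma of the bladder, labelled wild type in every library. In all 6 libraries were made: 3 (controls 1 to 3) came from cells without added cytokine and 3 (TGF-b1 1 to 3) from cells given TGF-β1 at 10 ng/ml for 48 h, all at day 2 in medium with 10% serum. The labels name no change of oxygen in either group. Separate cultures are not stated for the replicates in the labels. The p-values below reflect the spread among these particular libraries, and that spread may be technical only.

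In cells with enough oxygen, prolyl hydroxylases of the EGLN family mark the alpha subunits encoded by HIF1A and EPAS1, and the VHL ubiquitin ligase then sends them for degradation. When oxygen is short the subunits accumulate, pair with ARNT and bind a short core sequence near genes for glycolysis, blood supply, pH control and mitochondrial turnover. This control acts on the protein, so the mRNA of HIF1A can stay level while its targets move. Several targets have other inputs: DDIT4 also answers to ATF4, p53 and glucocorticoids, and NDRG1 to a range of stresses.

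Coordinates below are those of the gene in GENCODE 29 on GRCh38. The deposited values are FPKM, fragments scaled by gene length and library size. Libraries held 20743066 to 23721800 fragments assigned to annotated genes, so for a gene 2000 bp long 3 fragments are worth 0.0625 to 0.0701 FPKM. Of 6 epithelial markers, the keratins KRT7, KRT8 and KRT18 were above 1 FPKM in every library, KRT19 was listed at 0, and CDH1 and EPCAM stayed under 1 FPKM. The immune, endothelial and fibroblast markers summed to at most 0.338, 0.745 and 0.188 FPKM in any library, and CD3E, TEK and THY1 were listed at 0. Of 8 urothelial markers, PPARG, FOXA1 and UPK1B reached 1 FPKM in every library, GATA3 did not exceed 0.065 FPKM, and UPK3A was listed at 0. The epithelial markers summed to 469 to 636 FPKM in controls and 406 to 438 FPKM with TGF-β1, and the 3 proliferation markers to 235 to 257 and 284 to 310 FPKM; their part in the results below was not tested. PMEPA1 and SMAD7, which restrain TGF-β signalling and are induced by it, stood at 4.85 and 2.72 times the control mean and rose in the test described below, limma (adjusted p = 7.1e-06 and 0.00055). Control 3 stood apart from the other controls. Its chi-square per degree of freedom on fragments was 14.7 against both TGF-b1 1 and TGF-b1 2, and 20.4 and 28.9 against controls 1 and 2, where 1 is sampling noise. Its unspliced share of reads, 48.4%, lay within the 47.8 to 48.8% of the TGF-b1 libraries and above the 46.2 and 46.6% of the other controls. The groups also differed by base composition: the median log2 change was 0.14 over genes under 45% GC and -0.20 over genes of 55% or more. The members and the called genes below were therefore also fitted without control 3 and after a correction for GC content and length.

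DDIT4 and NDRG1 fell with TGF-β1 to 0.53 and 0.651 of their control means, and no member rose. Of the 10, 8 reached 1 FPKM in at least 3 libraries and were tested; CA9 and EGLN3 did not. Of the 8, 2 were lower and 0 higher at an adjusted p under 0.05 (limma over 11363 genes). The background was 2.44% of all genes called, 1.29% lower and 1.14% higher. The members were chosen with earlier results of these data known, so their counts describe and do not test. The median log2 change of the 8 was -0.14, against 0.012 over all genes tested. BNIP3 and ANKRD37 were also lower in all 3 treated libraries than in any control, but did not pass. Among all genes the groups did not overlap in 27.1%, 12.5% in this direction. Of the 8 tested, 4 were lower at an unadjusted p under 0.05 (limma), against 13.9% of all genes tested. They are the same 4 whose groups did not overlap, so this is not separate support. HIF1A, EPAS1, ADM and KDM3A overlapped between the groups.

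**Figure D1:**
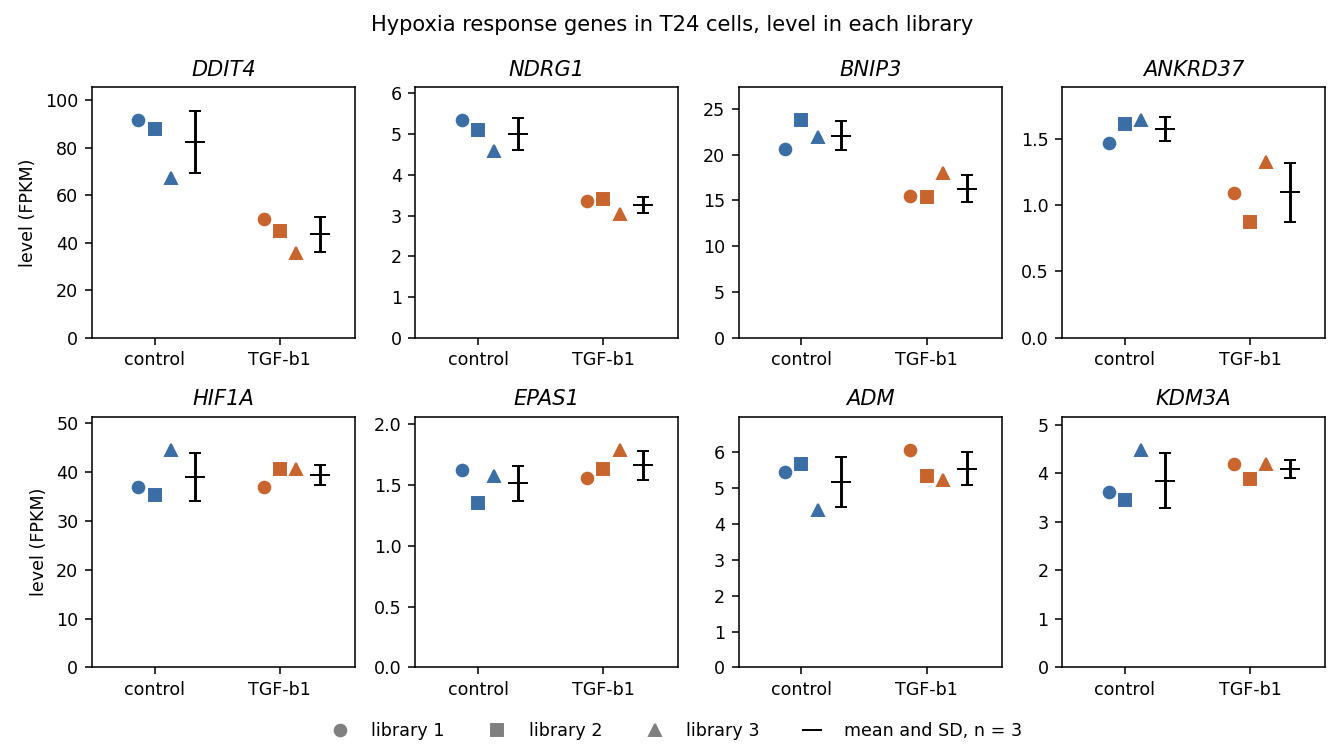
Level in FPKM (y axis, linear from 0) of the 8 tested members in each of 3 control and 3 TGF-b1 libraries, with mean and SD beside the points. In the top row every TGF-b1 library lies below every control; in the bottom row the groups overlap.

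The stretches of genome just before DDIT4, BNIP3 and ANKRD37, members lower in each treated library, are shown to make the HIF core visible. HIF binds the letters ACGTG or GCGTG, and both were searched on both strands in the 250 bases before each RefSeq gene start. Capitals mark every match, read as CACGT or CACGC where it lies on the other strand; in CACGTG the matches of both strands overlap. Sequences are from RefSeq, build GRCh38.p14, 5′ to 3′ on the gene's strand, and the RefSeq starts differ from the GENCODE gene ends given below.
DDIT4, chr10:72273674-72273923, plus strand: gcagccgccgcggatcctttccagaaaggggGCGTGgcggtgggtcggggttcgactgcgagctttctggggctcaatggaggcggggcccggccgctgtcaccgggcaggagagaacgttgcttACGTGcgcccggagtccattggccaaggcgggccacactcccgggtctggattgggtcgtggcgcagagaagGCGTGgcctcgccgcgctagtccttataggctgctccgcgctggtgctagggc
BNIP3, chr10:131981924-131982173, minus strand: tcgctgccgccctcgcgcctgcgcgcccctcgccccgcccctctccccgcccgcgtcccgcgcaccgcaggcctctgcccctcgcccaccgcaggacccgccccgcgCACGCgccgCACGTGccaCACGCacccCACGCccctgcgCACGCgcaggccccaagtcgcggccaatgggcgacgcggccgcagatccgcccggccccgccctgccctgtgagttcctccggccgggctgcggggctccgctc
ANKRD37, chr4:185396591-185396840, plus strand: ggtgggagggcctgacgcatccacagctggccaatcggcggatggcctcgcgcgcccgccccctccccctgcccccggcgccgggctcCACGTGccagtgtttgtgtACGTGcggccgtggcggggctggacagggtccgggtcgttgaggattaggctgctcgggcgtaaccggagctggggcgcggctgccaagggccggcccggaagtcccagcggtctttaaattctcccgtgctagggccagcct

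In DDIT4, ACGTG begins 125 bases before the start and GCGTG 219 and 53 bases before it. ANKRD37 holds 3 matches of ACGTG, 2 of them in 1 CACGTG, and none of GCGTG. BNIP3 holds 2 of ACGTG, in 1 CACGTG, and 4 of GCGTG on the other strand. The search covered 9 of the 10 members, in 11 windows. No upstream sequence of NDRG1 was searched. ACGTG was in a window of 4 of these 9 members (DDIT4, BNIP3, ANKRD37 and CA9), and 1 or other core in 8 of 9. Over all 35116 promoter windows of this length the shares were 18.5% and 43.2%. Each member was counted once over all its windows and the background by window, so these shares are not like for like. Most members were listed as known HIF targets, so no excess is read from these counts. The members that held only GCGTG were HIF1A, EPAS1, ADM and KDM3A, and EGLN3 held neither. A match of 5 letters describes the sequence and is not a measured binding site.

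In controls the members differed widely in level per length. DDIT4 was highest at 82.4 ± 13.1 FPKM (SD, n = 3), above 95.3% of tested genes, followed by HIF1A at 39.0 ± 4.97 and BNIP3 at 22.1 ± 1.62 FPKM. ADM at 5.16 ± 0.688 and NDRG1 at 5.01 ± 0.394 FPKM did not differ beyond their spread, and KDM3A came next at 3.85 ± 0.556 FPKM. ANKRD37 at 1.58 ± 0.091 and EPAS1 at 1.51 ± 0.142 FPKM also lay within each other's spread. CA9 and EGLN3 were at the limit of detection. With TGF-β1 the order at the top was less clear: DDIT4 at 43.6 ± 7.32 FPKM and HIF1A at 39.4 ± 2.08 FPKM overlapped. In these bulk samples, fewer cells that express a gene and less of its RNA per cell cannot be told apart.

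The factor genes came first in role. HIF1A, the broadly expressed alpha subunit (chr14:61695513-61748259), was at 37.0, 35.3 and 44.6 FPKM in controls 1 to 3 and at 37.0, 40.6 and 40.7 FPKM in TGF-b1 1 to 3. Control 3 was the highest of all 6 libraries, and the groups overlapped. The log2 change on log2(FPKM + 1), the scale of every log2 change and interval here, was 0.02 (SE 0.108, adjusted p = 0.91 by limma), and the 95% interval ran from 0.861-fold to 1.20-fold. After the GC and length correction it was -0.15 (adjusted p = 0.19), and without control 3 it was 0.12 (adjusted p = 0.25). EPAS1, the second alpha subunit (chr2:46293667-46386703), was at 1.62, 1.35 and 1.57 FPKM in controls and 1.56, 1.63 and 1.79 FPKM in treated cells, again overlapping (adjusted p = 0.60, interval 0.912-fold to 1.23-fold). Its log2 change of 0.08 and that interval are compressed at this low level by the added 1. By voom on recovered fragments the change was 0.14 (adjusted p = 0.55). Within a library HIF1A stood 22.8 to 28.4 times above EPAS1 in FPKM. Named after their values were seen, the antisense RNAs HIF1A-AS1 and HIF1A-AS2, which overlap HIF1A on the other strand, had at most 3 and 8 fragments in any library.

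Of the 25 genes listed for the oxygen-sensing machinery, which include both factor genes and EGLN3, 22 were tested. None passed in limma, 4 were at an unadjusted p under 0.05 against 25.1% of all genes, voom on recovered fragments called 0, and the median log2 change was 0.063. After the GC and length correction 1 was called, CITED4, higher, which is named after its values were seen. ARNT, the shared partner of the alpha subunits, stood at 9.69 ± 0.997 and 10.5 ± 0.229 FPKM (adjusted p = 0.44), and its relative ARNT2 at 2.20 and 2.15 FPKM (0.89). EGLN1, the main prolyl hydroxylase, stood at 15.4 ± 0.528 and 16.3 ± 0.678 FPKM (adjusted p = 0.59). EGLN2, its relative, was under the filter at 0.884 ± 0.0276 and 0.67 ± 0.156 FPKM. HIF1AN, the asparaginyl hydroxylase that blocks coactivator binding, was at 7.83 and 7.75 FPKM, and VHL at 26.8 and 26.4 FPKM (adjusted p = 0.93 and 0.88). HIF3A, another alpha subunit, had 2 fragments in all, both in TGF-b1 1.

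The largest differences in that list were P4HTM, a membrane prolyl hydroxylase (3.34 against 2.55 FPKM, adjusted p = 0.13), the histone acetyltransferase EP300, a HIF coactivator (5.66 against 7.03 FPKM, 0.16), the scaffold RACK1 (337 against 277 FPKM, 0.17) and CITED2, which competes with HIF1A for EP300 (20.1 ± 0.859 against 16.5 ± 0.298 FPKM, 0.11). Each had groups that did not overlap. Of the 22 tested in the list, 3 were higher and 3 lower without overlap, against 14.6% and 12.5% of all genes. Without control 3 P4HTM, EP300, RACK1 and CITED2 all passed in limma (adjusted p 0.021 to 0.037). They were among 5 of the list, where 29.6% of all genes were called.

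DDIT4 (chr10:72273920-72276036) encodes an inhibitor of mTORC1, the kinase complex that couples nutrients to protein synthesis, and acts through the TSC1 and TSC2 complex. It was at 91.8, 88.0 and 67.4 FPKM in controls 1 to 3 and at 50.1, 45 and 35.7 FPKM in TGF-b1 1 to 3, from 11530 and 6177 fragments in all. The groups did not overlap; control 3 was the lowest control and TGF-b1 3 the lowest of all. DDIT4 fell to 0.53 of the control mean (log2 change -0.90, SE 0.15, adjusted p = 0.012 by limma; interval 0.424-fold to 0.674-fold). The call held whichever library was left out, with changes of -1.04 to -0.77 and adjusted p from 0.0062 to 0.048. Its longest transcript is 58.1% GC, and after the GC and length correction the change was -0.70 (adjusted p = 0.010), where 4.39% of all genes were called, 1.89% lower. Relative to HIF1A in the same library, DDIT4 was 2.48, 2.49 and 1.51 times as high in controls and 1.35, 1.11 and 0.877 times in treated libraries, a ratio of FPKM values. DDIT4-AS1, on the opposite strand and named after its values were seen, was listed at 0 throughout, and the paralog DDIT4L was under the filter at 0.838 and 0.876 FPKM.

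Genes that share inputs or function with DDIT4 were read beside it. Of 26 listed 22 were tested, 1 rose and 2 fell in limma, against 1.14% and 1.29% of all genes, and the median log2 change was -0.099. Of the 22, 6 were lower and 1 higher without overlap, against 12.5% and 14.6% of all genes. At an unadjusted p under 0.05 (limma) were 8, 7 of them lower, against 25.1% and 13.9% of all genes. DEPTOR, which encodes another inhibitor of mTOR, fell from 2.47, 2.85 and 2.56 FPKM in controls to 1.28, 1.10 and 1.28 FPKM (log2 change -0.71, SE 0.097, adjusted p = 0.0033). All treated libraries were at 0.465 of the control mean on average, with no overlap. CEBPB, a stress and cytokine transcription factor, fell from 85.6 ± 17.7 to 46.4 ± 4.50 FPKM (log2 change -0.85, adjusted p = 0.014; 0.052 without control 1). CEBPB is 66.2% GC, and after the GC and length correction its change was -0.52 (adjusted p = 0.0059). ATF3, a stress-induced bZIP factor, rose from 3.56 ± 0.025 to 5.68 ± 0.49 FPKM (adjusted p = 0.011; 0.055 without control 1 and 0.052 without TGF-b1 3). PPP1R15A, a phosphatase subunit of the stress response, stood at 9.40 and 6.69 FPKM (0.092). Named after their values were seen, the upstream factor ATF4 stood at 119 ± 11.1 and 99.9 ± 9.69 FPKM (adjusted p = 0.20), and the glucocorticoid receptor NR3C1 at 2.15 and 2.56 FPKM (0.28). TSC2, chosen likewise, through which DDIT4 acts, stood at 3.79 and 3.82 FPKM (0.95). TRIB3 and DDIT3, also chosen likewise, were lower without overlap but did not pass in limma. TRIB3 stood at 47.2 and 37.5 FPKM (adjusted p = 0.14) and DDIT3 at 2.50 and 1.75 FPKM (0.16). After the correction DEPTOR and ATF3 changed by -0.72 and 0.52 (adjusted p = 0.0022 and 0.0061). Without control 3 the list had 1 higher and 9 lower, where 12.8% and 16.8% of all genes were called.

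NDRG1 (chr8:133237171-133302022) encodes a cytoplasmic protein that is induced by low oxygen and other stresses and is studied as a suppressor of metastasis. It was at 5.35, 5.10 and 4.58 FPKM in controls and 3.35, 3.40 and 3.03 FPKM in treated libraries, with no overlap. NDRG1 fell to 0.651 of the control mean (log2 change -0.49, SE 0.095, adjusted p = 0.020; interval 0.614-fold to 0.821-fold). The 0.651 is a ratio of FPKM, whereas the change and the interval are of FPKM + 1. The estimate ran from -0.55 to -0.45 over the left-out libraries. The call did not survive leaving out control 1 (adjusted p = 0.12) or 2 (0.067), nor leaving out TGF-b1 2 (0.066) or TGF-b1 3 (0.091). After the GC and length correction it was -0.50 (adjusted p = 0.0068). Its relative NDRG3 was higher in level and stood at 40.6 ± 2.41 and 43.7 ± 1.55 FPKM (adjusted p = 0.48). NDRG2 and NDRG4 were near the detection limit, at no more than 0.0781 and 0.202 FPKM in any library. NDRG3 was 7.11 to 9.35 times as high as NDRG1 in controls and 12.5 to 14.8 times in treated libraries.

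**Figure D2:**
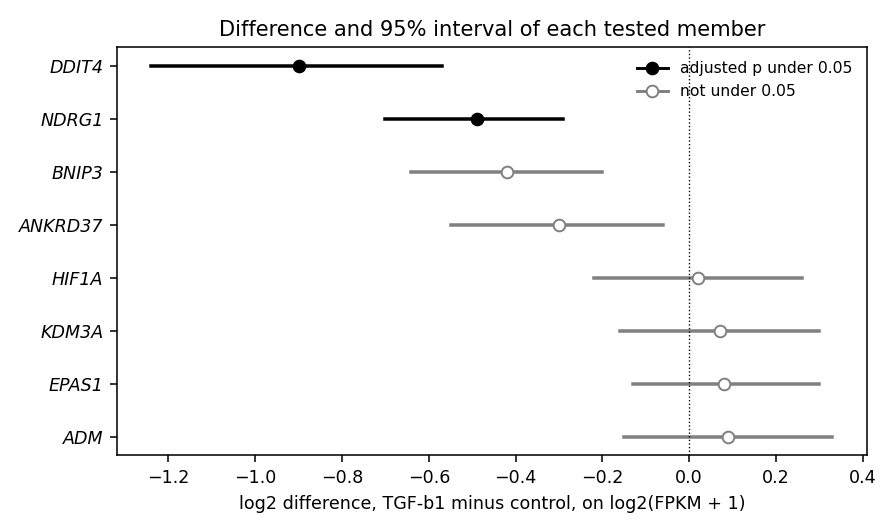
Log2 difference between TGF-b1 and control on log2(FPKM + 1) (x axis) for each tested member, with its 95% interval from limma. DDIT4 and NDRG1 (filled) passed the threshold; the intervals of BNIP3 and ANKRD37 also lie below 0, and those of the other 4 include 0.

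BNIP3 (chr10:131966455-131982013) encodes a mitochondrial membrane protein that recruits the autophagy machinery to mitochondria. It was at 20.6, 23.8 and 21.9 FPKM in controls and 15.5, 15.4 and 18.0 FPKM in treated libraries. Each treated library was below each control. The mean ratio was 0.738 (log2 change -0.42, SE 0.10, adjusted p = 0.056; interval 0.643-fold to 0.873-fold), which missed the threshold. It passed without control 3 (adjusted p = 0.022, where 29.6% of all genes were called) and after the GC and length correction (0.037, where 4.39% were). It also passed at a minimum of 5 FPKM (0.030, where 7.46% were) and by voom on fragments (0.015, where 9.32% were). It did not pass with any other library left out (0.06 to 0.22), without a filter (0.31) or with that correction and control 3 left out (0.053). Of 17 alternatives 8 called it. Its paralog BNIP3L, also a mitophagy receptor and a HIF target, stood at 22.1 ± 1.56 and 22.6 ± 1.19 FPKM (adjusted p = 0.84; interval 0.887-fold to 1.18-fold). BNIP3 has 39 annotated pseudogenes in the table, with 250 fragments in all over the 6 libraries; fragments shared with such copies could be split in counting.

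ANKRD37 (chr4:185396021-185400628) encodes a small ankyrin repeat protein. It was at 1.47, 1.61 and 1.64 FPKM in controls and 1.09, 0.873 and 1.32 FPKM in treated libraries, from 277 and 195 fragments. The groups did not overlap, and the FPKM ratio was 0.694. The log2 change of -0.30, compressed at this low level by the added 1, did not pass (SE 0.11, adjusted p = 0.14), nor did it under any of the 16 other settings in which it was tested (0.069 to 0.42). ANKRD37 overlaps UFSP2 on the opposite strand, which was at 3.36 to 4.44 FPKM. Fragments in the overlap cannot be told apart, because no source used here states whether the counting was stranded.

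**Figure D3:**
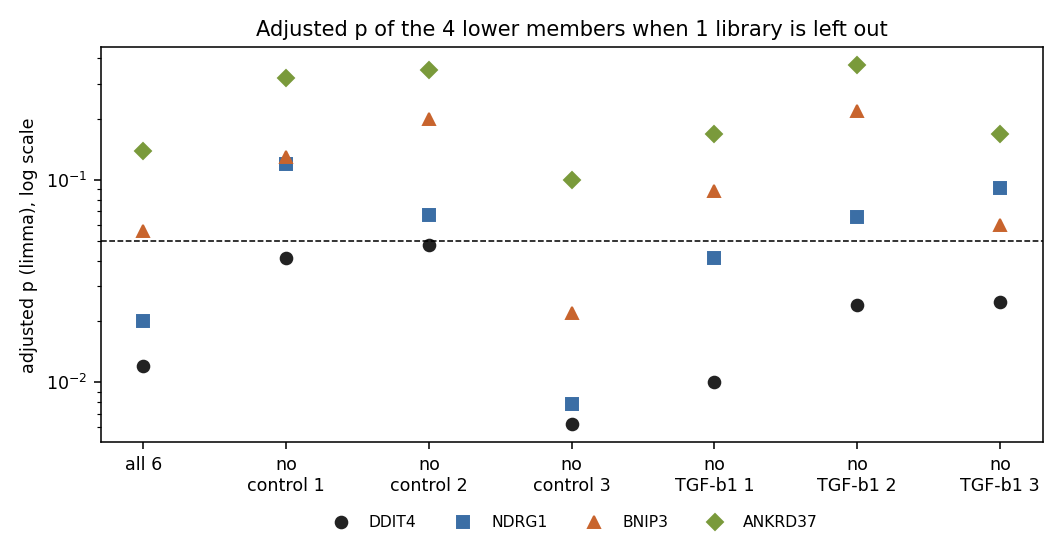
Adjusted p from limma (y axis, log scale) of DDIT4, NDRG1, BNIP3 and ANKRD37 with all 6 libraries and with each library left out in turn; the dashed line is 0.05. DDIT4 stays below the line in each case, NDRG1 in 3 of the 7, BNIP3 in 1, and ANKRD37 in none.

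Reading these calls needs the share of all genes called each time: 1.1% without control 1, 1.57% without control 2, 29.6% without control 3, and 3.28%, 1.35% and 1.28% without TGF-b1 1, 2 and 3. DDIT4 was among the called genes in each of these. With no filter on low values 0.053% were called, and neither DDIT4 nor NDRG1 was (adjusted p = 0.24 and 0.17).

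ADM and KDM3A overlapped between the groups. ADM (chr11:10304680-10307397) encodes adrenomedullin, a secreted peptide that widens blood vessels. It was at 5.46, 5.66 and 4.38 FPKM in controls and 6.07, 5.34 and 5.22 FPKM in treated libraries, overlapping, with control 3 the lowest (log2 change 0.09, SE 0.108, adjusted p = 0.61; interval 0.902-fold to 1.26-fold). After the GC and length correction ADM was called higher (0.29, adjusted p = 0.034), in a setting that called 2.5% of all genes higher. It was also called with control 3 left out after that correction, whose curves still used control 3 (0.28, adjusted p = 0.046). It was not called when a replicate block was added to the correction (0.29, adjusted p = 0.066), and without control 3 and with no correction the estimate was -0.0055. Named after their values were seen, its receptor CALCRL was under the filter at 0.236 to 0.475 FPKM, and RAMP2 and RAMP3, the partners that make CALCRL an adrenomedullin receptor, were listed at 0. KDM3A (chr2:86440647-86492716) encodes a histone demethylase that needs oxygen for its reaction. It was at 3.62, 3.45 and 4.49 FPKM in controls and 4.20, 3.88 and 4.19 FPKM in treated libraries, with control 3 the highest (adjusted p = 0.67; interval 0.897-fold to 1.23-fold; -0.079 on the log2 scale after the correction, adjusted p = 0.53). The relatives KDM3B, at 11.7 and 12.5 FPKM, and JMJD1C, at 3.39 ± 0.523 and 4.47 ± 0.0991 FPKM, did not pass either (adjusted p = 0.55 and 0.11). Over the whole list of 36 relatives, receptors and partners 21 were tested and 0 passed, with 2 at an unadjusted p under 0.05 and 2 called by voom, against 25.1% and 9.32% of all genes. Largest by change were NPAS2, a circadian relative of ARNT's partners, at 2.58 and 1.65 FPKM (adjusted p = 0.058), JMJD1C, ANKRD9 at 13.8 and 10.9 FPKM (0.22) and BNIP2 at 6.85 and 8.14 FPKM (0.20). Without control 3 NPAS2, JMJD1C, ANKRD9 and BNIP2 all passed (adjusted p 0.014 to 0.033), among 5 of the 21, where 29.6% of all genes were called.

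CA9 and EGLN3, classical markers of low oxygen, were nearly absent. CA9 (chr9:35673856-35681159) encodes a carbonic anhydrase on the cell surface that buffers pH. It had 3, 1 and 3 fragments in controls and 0 in each treated library, where a count of 0 in 1 library allows up to 3. CA9 was not tested, and no difference is read from so few fragments. Those fragments also cannot be told apart from ARHGEF39, which overlaps CA9 on the opposite strand at 2.56 to 3.21 FPKM. CA12, a related surface enzyme, had 4, 11 and 16 fragments in controls and 1, 1 and 2 in treated libraries, and was not tested. EGLN3 (chr14:33924231-34462774), a prolyl hydroxylase often induced by low oxygen, had 1 fragment in control 2 and 2 in TGF-b1 2, and shares an overlap on the same strand with SPTSSA, at 12.3 to 16.2 FPKM. Such counting limits cover counting error only.

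Other known HIF targets were read from a list. Of 62 listed, 51 were tested, 3 were called higher and 2 lower in limma, where 1.14% and 1.29% of all genes were, and the median log2 change was -0.13. These lists overlap what earlier results of the same data had shown, so their counts describe and do not test. ANGPTL4, a secreted inhibitor of lipoprotein lipase, rose from 56.5, 59.0 and 42.8 FPKM to 153, 133 and 135 FPKM (2.66-fold, log2 change 1.41, adjusted p = 0.00033; 1.69 after the GC and length correction and 1.27 without control 3, both called). EDN1, which encodes the vessel-constricting peptide endothelin, is 1 of the 3 but reached 1 FPKM only in the treated libraries, so it passed the filter only through the group where it is high, and no p is given for it. It was at 0.681, 0.652 and 0.745 FPKM in controls and 1.65, 1.31 and 2.15 FPKM with TGF-β1. ANGPTL4 is also known to be induced by TGF-β. STC1, a secreted glycoprotein hormone, fell from 12.4 ± 1.16 to 8.23 ± 0.677 FPKM (adjusted p = 0.019; 0.091 without control 1 and 0.057 without TGF-b1 2). ENO2, the neuronal enolase of glycolysis, fell from 26.1 ± 2.54 to 18.6 ± 0.80 FPKM (adjusted p = 0.034), and 4 of the 6 single left-out libraries ended that call: controls 1 and 2 (0.18 and 0.13) and the TGF-b1 libraries 2 and 3 (0.15 and 0.11). After the GC and length correction STC1 and ENO2 stayed called (adjusted p = 0.0033 and 0.0092), as they did without control 3 (0.014 and 0.006).

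**Figure D4:**
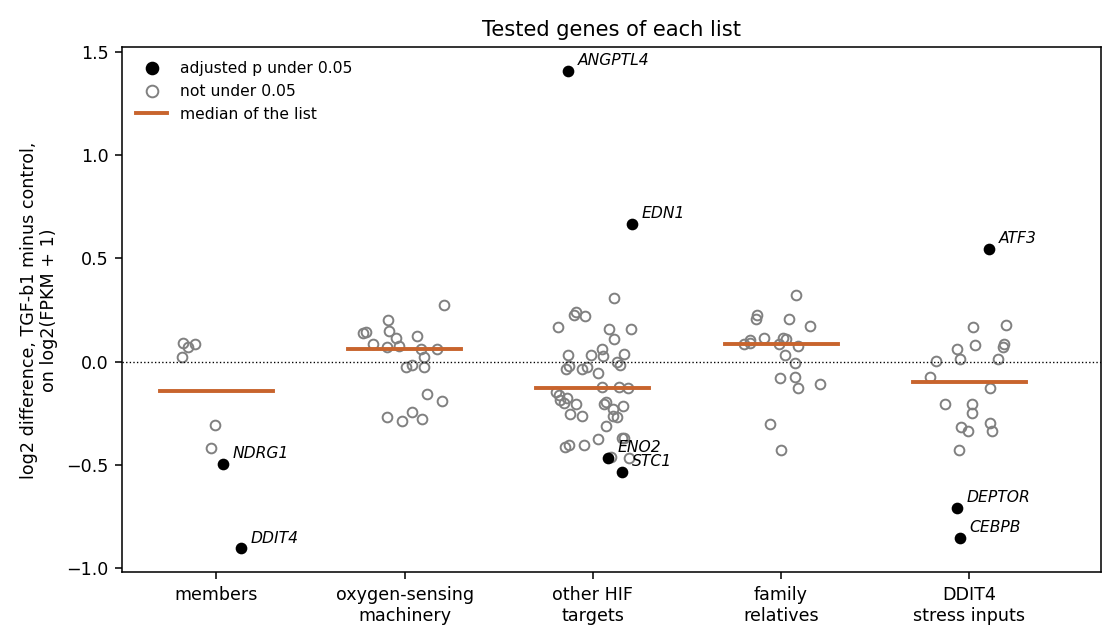
Log2 difference between TGF-b1 and control on log2(FPKM + 1) (y axis) of tested genes among the members and each list, with the median of the whole list as a bar. Filled points had an adjusted p under 0.05, and EDN1 entered the test only through its treated libraries; in the list of other HIF targets ANGPTL4 lies above 0 and STC1 and ENO2 lie below it.

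Among the 51, 19 had all treated libraries below all controls and 6 the reverse, against 12.5% and 14.6% of all genes. At an unadjusted p under 0.05 (limma) were 22, 16 of them lower, against 25.1% and 13.9% of all genes. Without control 3 the list had 7 higher and 15 lower, where 12.8% and 16.8% of all genes were called. Of the textbook targets named after their values were seen, HK2, the hexokinase that starts glycolysis, stood at 4.20 ± 0.562 and 2.75 ± 0.261 FPKM (adjusted p = 0.053). VEGFA, the vessel growth factor, stood at 2.55 ± 0.162 and 2.46 ± 0.109 FPKM (adjusted p = 0.82; interval 0.847-fold to 1.12-fold). SLC2A1, the glucose transporter, stood at 28.0 and 24.9 FPKM (0.28), PDK1, which keeps pyruvate from mitochondria, at 2.96 and 2.89 FPKM (0.89), and LDHA, lactate dehydrogenase, at 651 and 600 FPKM (0.50). Chosen likewise, GYS1, LOX, STC2, HILPDA, ENO1 and PGK1 were lower and BHLHE40 higher without overlap (adjusted p 0.061 to 0.17 in limma). TPI1, SLC16A3 and P4HA1, also chosen likewise, overlapped (0.12, 0.14 and 0.36). As reference genes, ACTB stood at 2373 and 2462 FPKM (0.81) and GAPDH, itself a glycolysis gene, at 2463 and 2073 FPKM (0.24; 0.046 without control 3).

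By Pearson's correlation of log2(FPKM + 1) over the 6 libraries, the genes most like DDIT4 were OSBPL5, MDK and MED24 (0.999, 0.999 and 0.998), and those most like NDRG1 were RUVBL1, KRT15 and WDR59 (0.997, 0.996 and 0.996). This describes 6 points in 2 groups that share libraries and depth, and 397 and 203 genes reached 0.95 with DDIT4 and NDRG1. KRT15 averaged 1.53 FPKM in controls and 0.765 FPKM with TGF-β1, so it may have passed the filter only through the controls, where it is high.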

How the data were processed

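Gene expression was measured by RNA sequencing of total RNA, with paired reads of 150 bases. The submitters' processing notes name HISAT2 2.0.5, featureCounts 1.5.0-p3 and hg38; strand setting, kit and annotation were not given in the sources used here. The authors deposited FPKM per gene, in a table of 58735 gene rows and 11 rows of mapping totals, which were left out. The table's 27 date-like names had no annotation. Groups came from the labels.

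Members and gene lists were chosen with earlier results of these data known. Genes named are all members, fixed relatives and machinery genes, list genes past the threshold and the 4 largest changes of each list; others are marked as named after their values were seen. In the list of other HIF targets, 1 called gene is counted but not reported here. Genes at 1 FPKM or more in at least 3 libraries (11363) were tested in limma 3.58.1 (R 4.3.3) on log2(FPKM + 1), with trended, robust variance, treatment as the term and Benjamini-Hochberg adjustment over all of them, called at 0.05. The code was tested on simulated data. Intervals are 95% intervals from that fit, back-transformed to folds of FPKM + 1. Fragments were recovered from FPKM with GENCODE 29 exon lengths: 99.999% of 126561 values were whole within 0.05. GC content was that of the longest transcript, and the correction subtracted loess curves (span 0.5) on GC and length. Alternatives were pseudocount, filter, scaling, variance model, replicate block, voom on fragments, that correction and leaving out each library. The correction with control 3 left out was added after seeing the data. There the curves were drawn with all 6 libraries and control 3 was dropped afterwards, so the corrected values still depended on it. Same-numbered libraries had residual correlations that were not all above 0.1, so numbers were not treated as pairs.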

Additional observations from a re-analysis of the deposited data

How the results depend on the processing

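Over all genes, 277 were called. That count was 15 without a filter, 500 at a minimum of 5 FPKM, 767 with the replicate block, 1057 by voom on fragments, 499 with the GC and length trend removed, 562 with both the block and the trend removal, 982 with the trend removed and control 3 left out (chosen after seeing the data), and 123 to 3307 when 1 library was left out; the highest was without control 3 and the lowest without control 1. Higher calls made up 46.9% of the main calls, 56.9% with the trend removed (284 of 499), 35.8% at 5 FPKM and 32.5% with the block. Members called went from 2 to 0 without a filter, 4 with the trend removed, and 1 to 3 over left-out libraries. Oxygen-sensing genes went from 0 to 1 with the trend removed, 1 with block and trend removal, 2 with the trend removed and control 3 left out, and 0 to 5 over left-out libraries. Other HIF targets went from 5 to 1 without a filter, 9 with the block, 11 by voom, 9 with the trend removed, 9 with block and trend removal, 15 with the trend removed and control 3 left out, and 2 to 22 over left-out libraries. Family relatives went from 0 to 2 by voom, 1 with the trend removed, 1 with block and trend removal, 1 with the trend removed and control 3 left out, and 0 to 5. Stress-input genes went from 3 to 0 without a filter and 1 to 10 over left-out libraries. The causes were not tested. Without a filter 28285 genes entered both the fit and the adjustment.

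DDIT4 was called in 16 of 17 alternatives, NDRG1 in 11 of 16, BNIP3 in 8 of 17 and ANKRD37 in 0 of 16. The estimates near 0 turned sign. With the trend removed, and equally with block and trend removal, HIF1A was at -0.15, KDM3A at -0.079, EGLN1 at -0.018 and BNIP3L at -0.11 on the log2 scale. With the trend removed and control 3 left out, HIF1A was at -0.12, KDM3A at -0.055, EGLN1 at -0.035, BNIP3L at -0.10 and ARNT2 at 0.04. With upper quartile scaling HIF1AN was at 0.015 and VHL at 0.0048. Over left-out libraries, HIF1A was at -0.0095 without control 1 and -0.043 without control 2, ADM at -0.0055 and ARNT2 at 0.02 without control 3, HIF1AN at 0.047 without TGF-b1 1, and ARNT2 at 0.022, VHL at 0.04 and ACTB at -0.029 without TGF-b1 3. Over all left-out libraries these ran from -0.043 to 0.12 for HIF1A, -0.0055 to 0.15 for ADM, -0.089 to 0.022 for ARNT2, -0.05 to 0.047 for HIF1AN and up to 0.11 for ACTB. None of the reversed values passed the threshold.

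Same-numbered libraries had residual correlations of 0.254, -0.071 and 0.17, and libraries numbered 2 did not correlate best with each other. The replicate block moved the count over all genes from 277 to 767 and kept 276 of them. Depth limits CA9 and EGLN3, for which no fold is given.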
